A study of Mus musculus with 8 samples.

Results

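The extracellular matrix genes of mouse skeletal muscle are described here in tibialis anterior, a fast muscle at the front of the shin, with and without Carm1 in the muscle fibres. Carm1 encodes a protein arginine methyltransferase also known as PRMT4. The genes were chosen by name, with earlier results of these data known: 47 collagen, matrix glycoprotein, proteoglycan, matrix enzyme, fibro-adipogenic and tendon genes out of 24341 genes listed for each library. They comprise 5 fibrillar collagen genes, 10 basement membrane genes, 4 microfibrillar or fibril-associated collagen genes, 8 glycoprotein and elastic fibre genes, 4 small proteoglycan or dermatopontin genes, 3 crosslinking or processing genes, 4 protease or inhibitor genes, 4 fibro-adipogenic or signal genes, and 5 tendon genes.

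The 4 knockout mice, Carm1 skm-/-, carried floxed Carm1 and 1 copy of the HSAcre transgene (HSAcre Tg/0). The 4 control mice, Carm1 skm+/+, carried floxed Carm1 without the transgene (HSAcre 0/0). Floxed alleles are thus shared by both groups, and presence of Cre goes with loss of Carm1 in every library. HSA-Cre takes its name from human skeletal actin, whose promoter drives it in muscle fibres and not in the fibroblasts, endothelium and tendon cells that make much of the matrix. All 8 mice were 12 weeks old, on chow and described as male, and 1 RNA library was made per animal.

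Interstitial matrix of muscle is laid down mainly by fibro-adipogenic progenitors, the resident Pdgfra-positive fibroblasts. They secrete the chains of type I, III, V and VI collagen, the proteoglycans that coat the fibrils and the enzymes that crosslink them. Around each fibre and capillary lies a basement membrane of laminin, type IV collagen, nidogen and perlecan, and at the fibre ends the matrix passes into tendon, whose cells are marked by scleraxis and tenomodulin.

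Values are FPKM, which count fragments per kilobase of each transcript and scale them to the mapped fragments of a library, so that levels of different genes may be compared per length. They were divided by a scale factor per library, between 0.904 and 1.07, and differences are log2 (scaled FPKM + 1) in knockout minus control, fitted with limma over 11096 genes and adjusted by the Benjamini-Hochberg method at a threshold of 0.05. This scale understates differences of low genes. Summed FPKM per library lay between 604428 and 681042, and relative depth between 81.0% and 100%; the number of reads is unknown. Carm1 averaged 15.4 ± 2.57 scaled FPKM in knockout libraries and 30.5 ± 4.82 in control libraries (SD, n = 4 each), which is 50.6% of control, with no overlap and an exact 2-sided permutation p = 0.0286, the smallest that 4 against 4 allows. Against the description as male, 3 libraries held Xist, the RNA of the inactive X chromosome, at 19.6 to 22.9 FPKM, and Ddx3y, a Y-linked gene, at no more than 0.0444 FPKM. They were knockout 2, knockout 4 and control 1. The other 5 libraries held Xist at no more than 0.0662 FPKM and Ddx3y at 8.08 to 13.6 FPKM. Xist presence was therefore unequal between the groups, and the main results are given with and without those libraries.

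None of the 46 matrix genes tested passed the adjusted threshold; Comp was below the filter on low values. Over all genes, 40 passed, which is 0.36% (22 higher, 0.198%, and 18 lower, 0.162%). On unscaled FPKM the same counts were 36 and 13. At an unadjusted limma p under 0.05 were 10 of the 46 matrix genes, 9 lower and 1 higher, beside 13.1% of all genes (6.07% lower and 7.03% higher). The smallest adjusted p of a matrix gene was 0.203, for Sparc. Over 20 alternative analyses Sparc reached 0.132 at the lowest, and the lowest of any matrix gene was 0.0718, for Timp1 without knockout 3, where Timp1 was higher in knockout. Values of knockout libraries lay wholly below those of control libraries for 5 genes (Col5a1, Lamb2, Col6a2, Sparc and Timp3) and wholly above for 1 (Scx), beside 3.64% and 4.67% of all genes (8.31% in either direction).

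Of the 42 genes outside tendon 39 were below 0, with a median log2 difference of -0.21, beside 50.5% of all genes tested and a median of -0.00. The tendon genes stood on the other side, with 3 of 4 tested above 0 and a median of 0.37. Both medians rested in part on single libraries, as described after the gene groups: without knockout 3 and control 4, 25 of 41 genes outside tendon were below 0, with a median of -0.05. Among the 3 libraries with Xist the direction turned, with 28 of 42 above 0 and a median of 0.06. In bulk tissue, fewer cells of a type and less RNA per cell cannot be told apart.

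**Figure D1:**
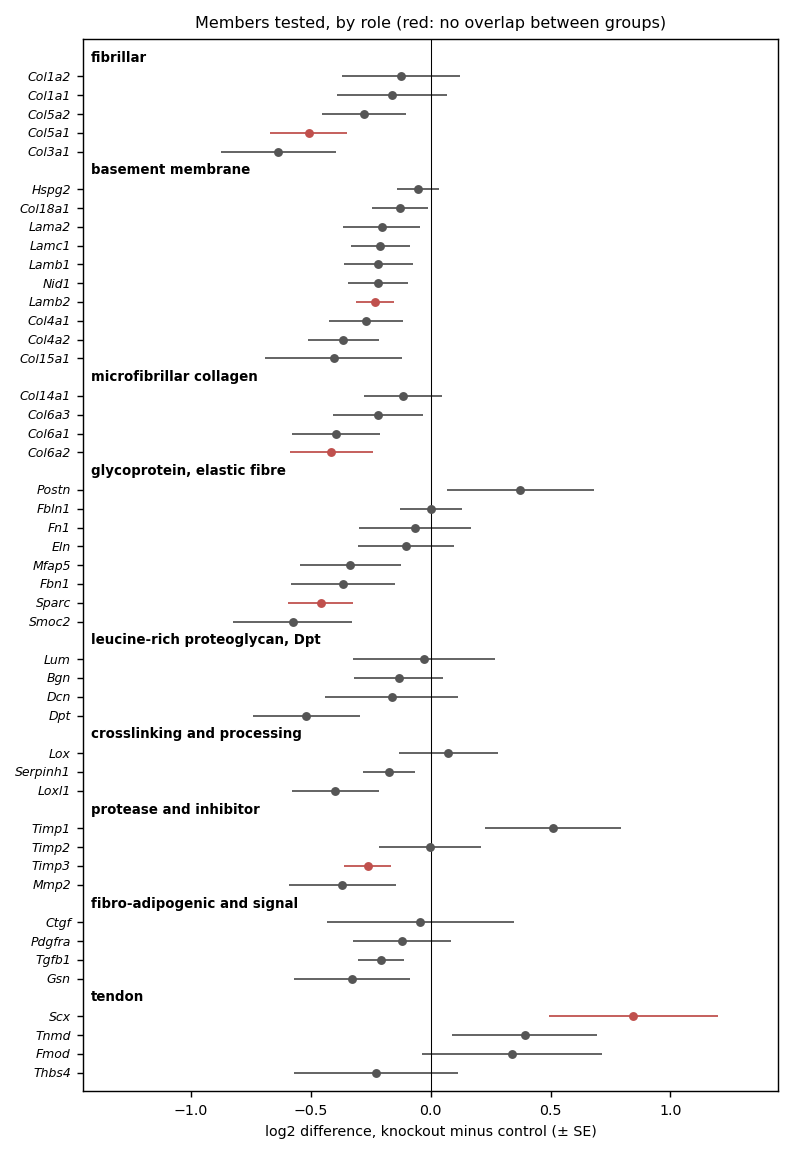
Log2 difference (knockout minus control, x axis) of each tested matrix gene, grouped by role (y axis), with limma standard errors as bars and genes whose groups do not overlap in red. The 39 of 42 genes outside tendon that lie left of 0 have a median of -0.21, and the tendon genes lie mostly to the right.

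To show what the collagen transcripts share apart from their role, sites for the miR-29 family in their 3′ untranslated regions are printed first, because this microRNA family is known to repress collagen messages in fibroblasts. Its mature members, from RefSeq on GRCm38.p6, share the seed, bases 2 to 8, in capitals.
mmu-miR-29a-3p: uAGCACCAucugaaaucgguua
mmu-miR-29b-3p: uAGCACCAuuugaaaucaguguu
mmu-miR-29c-3p: uAGCACCAuuugaaaucgguua
They are encoded at chr6:31062673-31062694 on the minus strand (miR-29a), chr1:195037091-195037113 on the plus strand (the Mir29b-2 copy of miR-29b) and chr1:195037600-195037621 on the plus strand (miR-29c). The microRNAs themselves were not measured here.

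The 7 letters TGGTGCT, which pair with that seed, were searched on the sense strand of the longest 3′ untranslated region that GENCODE M21 gives each gene on GRCm38. Of the 5 fibrillar collagen genes, 4 hold them, here in capitals within 25 bases of the sense strand, together with sites of both type IV collagen genes.
Col1a1, chr11:94952529-94952553: aggaatttcTGGTGCTatagaagct
Col3a1, chr1:45348973-45348997: atgtctcaaTGGTGCTataataaat
Col5a1, chr2:28037995-28038019: atgaacattTGGTGCTgaatttttt
Col5a1, chr2:28038025-28038049: tgtctcttgTGGTGCTatgtgtccg
Col5a1, chr2:28038341-28038365: gaatgtttgTGGTGCTaatctctgt
Col5a1, chr2:28038713-28038737: gagtcactcTGGTGCTtgtgtcccc
Col5a2, chr1:45374957-45374981: ttttaatgaTGGTGCTaaaattatt
Col4a1, chr8:11199753-11199777: gtcacaacaTGGTGCTactcccccc
Col4a2, chr8:11448350-11448374: aggccacgtTGGTGCTtatccttct
Col4a2, chr8:11448521-11448545: cacccagctTGGTGCTtactcttaa
The Col1a1 site lies beyond the end of the gene as deposited, in a longer GENCODE transcript. In all, 16 of 46 matrix genes with an annotated region hold the letters (34.8%), beside 15.6% of 10314 tested genes and 11.3% of 2470 tested genes whose region falls within the members' quartiles of length. The 34.8% covers matrix genes of every length, so the last share is not matched to it for length. No tendon gene (0 of 5) and no small proteoglycan or dermatopontin gene (0 of 4) holds them. Their regions were shorter, with medians of 172 and 841 bases, beside 1138 over all tested genes. Lists this small cannot be set apart from the 15.6% of all tested genes. Matrix genes with a site had a median log2 difference of -0.31, with 15 of 16 below 0, and tested matrix genes without one had a median of -0.16, with 24 of 29 below 0. The set without a site holds all 4 tested tendon genes; outside tendon 23 of 25 genes without a site were below 0, with a median of -0.17. Over all tested genes the medians were 0.02 with a site and -0.01 without. A match of letters is a description and not a measured site.

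Col4a1 and Col4a2 are encoded head to head, and their deposited spans end and begin 2 bases apart on chromosome 8. RefSeq windows on GRCm38.p6, 250 bases before to 50 after each start, overlap by 78 bases. Any link between these windows and the levels of both genes was not tested. The windows are printed 5′ to 3′ on the gene's own strand, with CCAAT or its complement ATTGG in capitals.
Col4a1, chr8:11312777-11313076, minus strand: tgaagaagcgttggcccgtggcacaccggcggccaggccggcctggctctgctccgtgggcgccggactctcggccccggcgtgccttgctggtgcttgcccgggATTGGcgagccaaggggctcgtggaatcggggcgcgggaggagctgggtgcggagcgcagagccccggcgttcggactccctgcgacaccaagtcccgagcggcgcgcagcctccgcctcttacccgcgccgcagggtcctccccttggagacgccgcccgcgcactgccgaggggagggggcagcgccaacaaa
Col4a2, chr8:11312555-11312854, plus strand: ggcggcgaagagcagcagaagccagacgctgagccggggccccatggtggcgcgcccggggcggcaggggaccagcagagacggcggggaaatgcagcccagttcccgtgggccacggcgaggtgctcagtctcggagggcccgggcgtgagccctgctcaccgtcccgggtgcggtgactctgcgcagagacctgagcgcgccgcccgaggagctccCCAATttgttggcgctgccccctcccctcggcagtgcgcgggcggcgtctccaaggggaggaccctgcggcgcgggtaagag
The letters CCAAT on either strand are in 10 of the 31 matrix gene windows given (32.3%), beside 38.5% of 8468 windows of tested genes and 37.9% of all 27025 windows. TATAAA is in 6.45%, or 2 of 31, beside 7.05% for tested genes and 14.2% for all windows.

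Fibrillar collagens form the tensile fibres of the interstitium. All 5 genes had lower means in knockout libraries, with a median log2 difference of -0.28, and none passed the threshold. Col3a1, the single chain of type III collagen (chr1:45311538-45349706, mm10 as deposited), had 33.5, 36.1, 21.1 and 39.1 scaled FPKM in knockout libraries 1 to 4, against 40.9, 37.9, 55.4 and 70.9 in control libraries 1 to 4. Only the highest knockout library, number 4, reached above the lowest control library. Its mean was 63.3% of control, with a log2 difference of -0.64 (SE 0.24) and a limma adjusted p of 0.307, and without both knockout 3 and control 4 the difference was -0.28.

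Col5a1, the type V chain that nucleates fibrils (chr2:27886425-28039510), had 3.43, 3.32, 2.36 and 3.48 scaled FPKM in knockout libraries, against 3.69, 4.24, 5.36 and 6.55 in control libraries. Every knockout library was below every control library, and the difference was -0.51 (SE 0.16; limma adjusted p = 0.223). Without both knockout 3 and control 4 it was -0.29. Col1a2, the second chain of type I collagen (chr6:4505697-4541543), had 40.2, 37.8, 24.9 and 35.9 scaled FPKM in knockout libraries, against 25.2, 32.2, 42.1 and 56.5 in control libraries. Those groups overlapped over most of their range, with a difference of -0.12 (SE 0.24; limma adjusted p = 0.867), and its sign turned without knockout 3 (0.02) or without control 4 (0.07). Its partner chain Col1a1 (chr11:94936270-94951856) averaged 16.7 ± 3.93 scaled FPKM in knockout and 19.1 ± 5.87 in control libraries. Col5a2, another type V chain, lay between 3.15 and 5.45 in knockout and between 4.48 and 7.56 in control libraries.

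**Figure D2:**
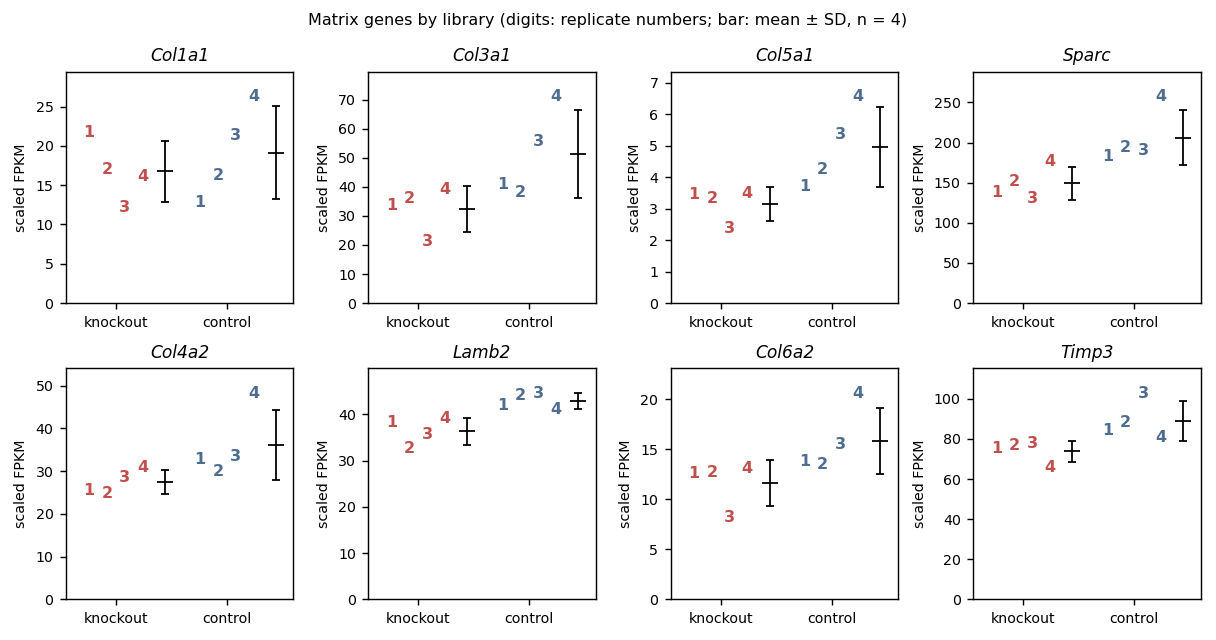
Scaled FPKM (y axis) of named matrix genes in each of the 4 knockout libraries (left) and 4 control libraries (right), with the mean and SD of each group. For Col5a1, Lamb2, Col6a2, Sparc and Timp3 the knockout libraries all lie below the control libraries, and for Col1a1, Col3a1 and Col4a2 the groups overlap. Digits are replicate numbers.

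Ratios between chains of 1 molecule were set beside ratios between chains of different collagen molecules. The highest over the lowest ratio among the 8 libraries was 1.10 for Col6a1 to Col6a2, 1.16 for Col4a1 to Col4a2, 1.20 for Col1a1 to Col1a2, 1.34 for Col6a3 to Col6a2 and 1.42 for Col5a1 to Col5a2, beside 1.83 for Col5a1 to Col1a1 and 2.07 for Col3a1 to Col1a1. These ratios of scaled FPKM were chosen after the values were seen, 13 in all, and carry no test. Col1a1 to Col1a2 was 0.482 ± 0.0427 in knockout and 0.496 ± 0.0211 in control libraries (SD, n = 4 each), with extremes of 0.449 and 0.540 over all 8. Col6a1 to Col6a2 was 1.33 ± 0.0321 in knockout and 1.31 ± 0.0590 in control libraries, and Col4a1 to Col4a2 was 1.31 ± 0.0515 in knockout and 1.22 ± 0.0434 in control libraries; all 3 of these ratios overlapped. Col6a3 to Col6a2 was 0.420 ± 0.0201 in knockout and 0.370 ± 0.0345 in control libraries and overlapped too.

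Of the 13 ratios, 2 did not overlap, and both hold Col5a1. Col5a1 to Col5a2 was 0.676, 0.609, 0.748 and 0.678 in knockout libraries, against 0.824, 0.796, 0.853 and 0.866 in control libraries. No knockout library reached the lowest control library. Col5a1 to Col1a1 was 0.158, 0.196, 0.195 and 0.215 in knockout libraries, against 0.289, 0.261, 0.252 and 0.249 in control libraries, again without overlap. In the first ratio knockout 3 was the highest knockout library and control 4 the highest control library. In the other, knockout 3 lay inside the knockout range and control 4 was the lowest control library. Col3a1 to Col1a1 averaged 1.96 ± 0.393 in knockout and 2.71 ± 0.362 in control libraries and overlapped.

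**Figure D3:**
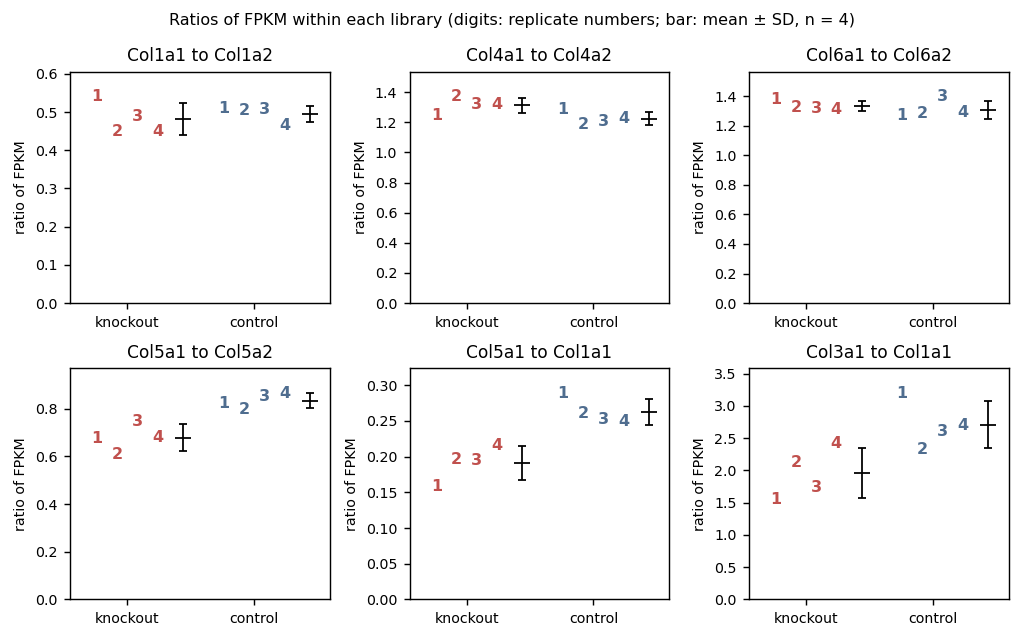
Ratios of scaled FPKM between collagen chains (y axis) in each knockout library (left) and control library (right) with group means. Col5a1 to Col5a2 and Col5a1 to Col1a1 do not overlap between the groups, and the ratios within type I, IV and VI collagen do.

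Basement membrane genes encode the sheet that wraps fibres and capillaries. All 10 had lower means on the log2 scale in knockout libraries, with a median of -0.22 and a range of -0.41 to -0.05, and none passed the threshold. Lamb2, the laminin beta chain enriched at the neuromuscular junction (chr9:108479862-108490530), had 38.2, 32.6, 35.7 and 39.0 scaled FPKM in knockout libraries, against 42.0, 44.1, 44.6 and 41.0 in control libraries. The groups were apart and each was narrow, and the difference was -0.23 (SE 0.08; limma adjusted p = 0.251). It stood at -0.25 when both knockout 3 and control 4 were left out, and at -0.15 on unscaled FPKM.

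Type IV collagen is the network-forming chain pair of every basement membrane. Col4a1 (chr8:11198423-11312826) had 31.8, 33.9, 37.5 and 40.7 scaled FPKM in knockout libraries, against 41.9, 35.5, 40.3 and 59.2 in control libraries. Col4a2 (chr8:11312829-11449287) had 25.5, 24.8, 28.5 and 30.9 in knockout libraries, against 32.6, 30.0, 33.5 and 48.2 in control libraries. Control 4 was the highest library for both genes, and the groups overlapped by the highest knockout library alone for Col4a2. Differences were -0.27 (SE 0.15; limma adjusted p = 0.498) for Col4a1 and -0.37 (SE 0.15; limma adjusted p = 0.340) for Col4a2. Of the other 7 genes, Col15a1, a collagen between basement membrane and interstitium, differed by -0.41, Lama2, Lamb1 and Lamc1, laminin chains, by -0.21, -0.22 and -0.21, Nid1, the nidogen linker, by -0.22, Col18a1, the precursor of endostatin, by -0.13, and Hspg2, perlecan, by -0.05. Hspg2 changed sign on unscaled FPKM (0.03).

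Type VI collagen forms beaded microfibrils next to the basement membrane. Col6a1 (chr10:76708792-76726044) had 17.4, 16.8, 10.8 and 17.1 scaled FPKM in knockout libraries, against 17.5, 17.2, 21.6 and 26.6 in control libraries. Col6a2 (chr10:76595756-76623404) had 12.6, 12.7, 8.21 and 13.1 in knockout libraries, against 13.8, 13.5, 15.5 and 20.6 in control libraries. For both genes knockout 3 lay far under the other 7 libraries. Knockout 1 was just above the lowest control for Col6a1, and for Col6a2 the groups did not overlap. The differences were -0.40 (SE 0.18; limma adjusted p = 0.404) for Col6a1 and -0.41 (SE 0.17; limma adjusted p = 0.363) for Col6a2, and Col6a2 stood at -0.14 without both knockout 3 and control 4. Col6a3, the long chain of the same molecule, differed by -0.22, and Col14a1, a fibril-associated collagen near the filter, by -0.12.

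Sparc encodes a collagen-binding glycoprotein needed for collagen processing and basement membrane assembly (chr11:55394159-55420080). It had 138, 152, 130.0 and 176 scaled FPKM in knockout libraries, against 183, 194, 190.2 and 257 in control libraries. All knockout libraries were below all control libraries, and the mean was 72.4% of control, with a log2 difference of -0.46 (SE 0.14; limma adjusted p = 0.203). Without both knockout 3 and control 4 it was -0.29. Smoc2, a Sparc-related modular calcium-binding protein (chr17:14279506-14404790), had 42.9, 34.4, 27.9 and 37.0 in knockout libraries, against 34.3, 51.8, 51.3 and 85.0 in control libraries. Control 1 fell inside the knockout range, and the difference was -0.58 (SE 0.25; limma adjusted p = 0.374), or -0.24 without both knockout 3 and control 4.

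The remaining glycoprotein and elastic fibre genes were Fbn1 (fibrillin, -0.37), Mfap5 (a microfibril protein, -0.34), Eln (elastin, -0.10), Fn1 (fibronectin, -0.07), Fbln1 (fibulin, -0.00) and Postn (periostin, 0.37), none past the threshold. Postn, a matricellular protein of remodelling tissue, had 7.76, 15.4, 5.34 and 13.1 scaled FPKM in knockout libraries, against 4.89, 6.98, 7.85 and 9.94 in control libraries. Its high values were those of knockout 2 and knockout 4, both with Xist, and among libraries without Xist its difference was -0.30.

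Small leucine-rich proteoglycans and dermatopontin coat collagen fibrils and set their spacing. Dcn, decorin, had 234, 178, 123 and 159.8 scaled FPKM in knockout libraries, against 118, 173, 227 and 279 in control libraries. Both groups varied widely and overlapped, with a difference of -0.16 (SE 0.28; limma adjusted p = 0.849). Bgn, biglycan, had 33.0, 34.2, 22.7 and 42.2 in knockout libraries, against 31.5, 32.9, 33.9 and 45.3 in control libraries, a difference of -0.13 (SE 0.19; limma adjusted p = 0.813) with overlap. Dpt, dermatopontin, had 25.8, 23.6, 15.8 and 29.2 in knockout libraries, against 24.5, 29.9, 38.1 and 45.1 in control libraries. It overlapped too, with the largest difference of the 4, -0.52 (SE 0.22; limma adjusted p = 0.374), and stood at -0.21 without both knockout 3 and control 4. Lum, lumican, differed by -0.03.

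Loxl1 encodes a lysyl oxidase that crosslinks elastin. It had 4.56, 3.01, 2.55 and 3.72 scaled FPKM in knockout libraries, against 3.31, 5.004, 5.14 and 6.10 in control libraries, and overlapped through control 1 (-0.40, SE 0.18; limma adjusted p = 0.397). Serpinh1, the collagen chaperone HSP47, had 33.3, 34.7, 37.9 and 36.8 in knockout libraries, against 35.0, 40.9, 37.5 and 49.2 in control libraries (-0.17, SE 0.11; limma adjusted p = 0.535). Here knockout 3 was the highest knockout library, unlike for the collagens the chaperone serves. Lox, the lysyl oxidase of collagen, differed by 0.07.

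Among inhibitors of matrix proteases, the 3 Timp genes gave unlike values. Timp3, the inhibitor that is bound to matrix, had 75.1, 76.7, 77.5 and 65.8 scaled FPKM in knockout libraries, against 84.2, 88.1, 103 and 80.5 in control libraries. The groups did not overlap, the lowest knockout was number 4, and the difference was -0.26 (SE 0.10; limma adjusted p = 0.303), or -0.33 without both knockout 3 and control 4. Timp2, which also takes part in activating Mmp2, had 36.8, 22.6, 23.1 and 26.3 in knockout libraries, against 18.4, 27.2, 28.0 and 36.3 in control libraries, a difference of -0.00 (SE 0.21; limma adjusted p = 0.996).

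Timp1, the inducible inhibitor, had 3.55, 3.47, 0.856 and 3.28 scaled FPKM in knockout libraries, against 1.05, 1.78, 1.40 and 1.88 in control libraries. Of the knockout libraries 3 were above every control and knockout 3 was below every control, so that the difference was 0.51 (SE 0.28; limma adjusted p = 0.489) with knockout 3 and 0.82 without it. Timp1 and Timp3 are listed with spans that also hold other genes (Araf and Syn1 at chrX:20848543-20920918, Syn3 at chr10:86048746-86498896). In GENCODE M21 Timp1 lies apart from Araf and inside Syn1, and Timp3 lies inside Syn3, each on the opposite strand. Whole spans were compared and not exons, so how far reads of such genes can be told apart without strand information was not tested. Syn1 lay between 0.0183 and 0.119 scaled FPKM over all libraries, and Syn3 between 0.174 and 0.273. Mmp2, the gelatinase of muscle fibroblasts, differed by -0.37.

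Of the fibro-adipogenic and signal genes all 4 were below 0, with a median of -0.16. Without knockout 3 the median was -0.044 with 2 of 4 below 0, and among libraries with Xist 3 of 4 were above 0, with a median of 0.16. Gsn, gelsolin, an actin-severing protein high in fibroblasts, had 328, 249, 171 and 281 scaled FPKM in knockout libraries, against 221, 290.3, 418 and 365 in control libraries, with overlap (-0.33, SE 0.24; limma adjusted p = 0.616). Tgfb1, the main fibrogenic ligand, had 4.81, 4.16, 5.38 and 4.81 in knockout libraries, against 4.88, 5.88, 5.82 and 6.16 in control libraries. It overlapped by knockout 3 alone, which here was the highest knockout library (-0.21, SE 0.09; limma adjusted p = 0.396). Ctgf, a target of that pathway, had 15.4, 25.3, 10.7 and 13.0 in knockout libraries, against 17.3, 11.7, 33.8 and 8.88 in control libraries, and did not separate (-0.04, SE 0.39; limma adjusted p = 0.975). Pdgfra, the receptor that marks the progenitors, differed by -0.12.

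Tendon genes varied widely between animals. Scx, the tendon transcription factor scleraxis, had 26.7, 8.77, 6.57 and 9.51 scaled FPKM in knockout libraries, against 4.56, 5.79, 6.41 and 6.38 in control libraries. All knockout libraries were above all control libraries, knockout 1 far above the rest, and the difference was 0.85 (SE 0.35; limma adjusted p = 0.361), or 0.45 without knockout 1. Scx is listed with a span, chr15:76380513-76477269, that also holds Bop1 and Mroh1. In GENCODE M21 it lies at chr15:76457452-76459458, inside the span of Bop1 on the opposite strand. Whole spans were compared and not exons, so how far reads of both genes can be told apart was not tested. Bop1 had 18.2, 13.5, 14.2 and 14.3 in knockout libraries, against 11.7, 14.1, 12.3 and 11.9 in control libraries, again highest in knockout 1.

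Knockout 1 was also the highest library for fibromodulin and cartilage oligomeric matrix protein, and not for tenomodulin. Tnmd, a membrane protein of tendon cells, had 7.70, 9.05, 4.44 and 5.87 scaled FPKM in knockout libraries, against 2.39, 4.86, 4.87 and 8.44 in control libraries, with overlap (0.39, SE 0.30; limma adjusted p = 0.632). Fmod, a tendon proteoglycan, had 22.6, 11.6, 12.2 and 8.08 in knockout libraries, against 4.56, 10.2, 11.8 and 16.5 in control libraries (0.34, SE 0.38; limma adjusted p = 0.759). Comp, a fibril-organising protein of tendon and cartilage, had 1.52, 1.14, 0.932 and 0.897 in knockout libraries, against 0.504, 0.818, 0.965 and 1.39 in control libraries and was not tested.

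Thbs4, a thrombospondin of tendon and the myotendinous junction, was the tendon gene below 0. It had 60.8, 33.8, 31.2 and 23.3 scaled FPKM in knockout libraries, against 22.1, 55.3, 45.1 and 51.9 in control libraries (-0.23, SE 0.34; limma adjusted p = 0.828). Control 1 was the lowest of the 8 libraries for all 4 tested tendon genes, and knockout 1 the highest for 3 of them. The tendon median of 0.37 was 0.08 without control 1 and 0.20 without knockout 1, so each of those libraries carried much of it.

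**Figure D4:**
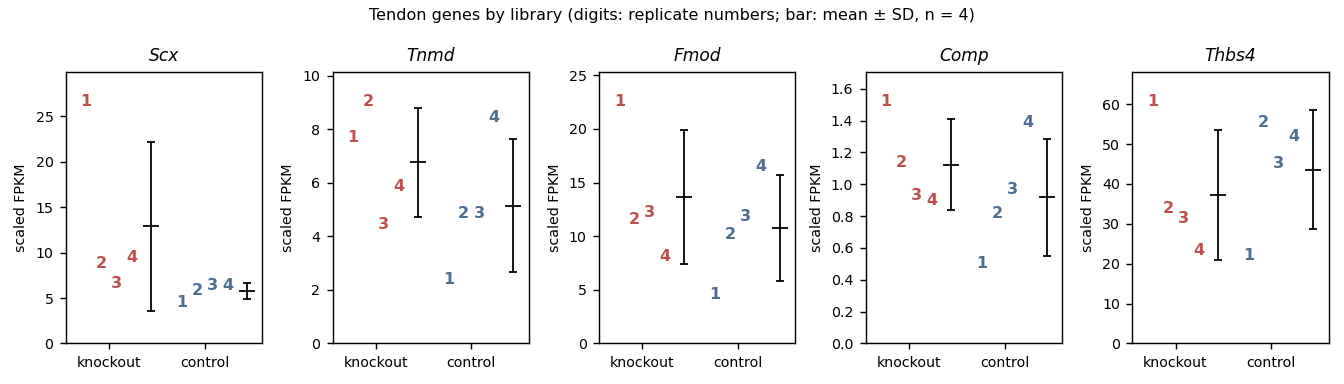
Scaled FPKM (y axis) of the tendon genes in each knockout library (left) and control library (right) with mean and SD (digits are replicate numbers). Knockout 1 is highest for Scx, Fmod and Thbs4, and control 1 is lowest for all 4 tested tendon genes.

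For matrix genes outside tendon, another pair of libraries stood at the ends. Knockout 3 was the lowest of the 8 libraries for 29 of 42 genes (69.0%), beside 11.6% of all genes tested, and control 4 was the highest for 28 of 42 (66.7%), beside 13.5% of all genes tested. On average over the 42 genes, the log2 deviation from the gene's mean was -0.01, -0.00, -0.44 and 0.03 in knockout libraries 1 to 4, against -0.13, -0.03, 0.19 and 0.39 in control libraries 1 to 4. Knockout libraries 1, 2 and 4 thus lay close to 0 and between the control libraries. Relative depth was 81.0% in knockout 3, the lowest of the 8, and 92.1% in control 4, and its part in this was not tested. The median difference of the 42 genes was -0.14 without knockout 3 (30 of 42 below 0) and -0.15 without control 4 (32 of 41 below 0). The fibrillar median of -0.28 was -0.13 without knockout 3, -0.17 without control 4 and -0.02 without both, and the basement membrane median of -0.22 was -0.13, -0.13 and -0.04 in the same order of omissions.

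**Figure D5:**
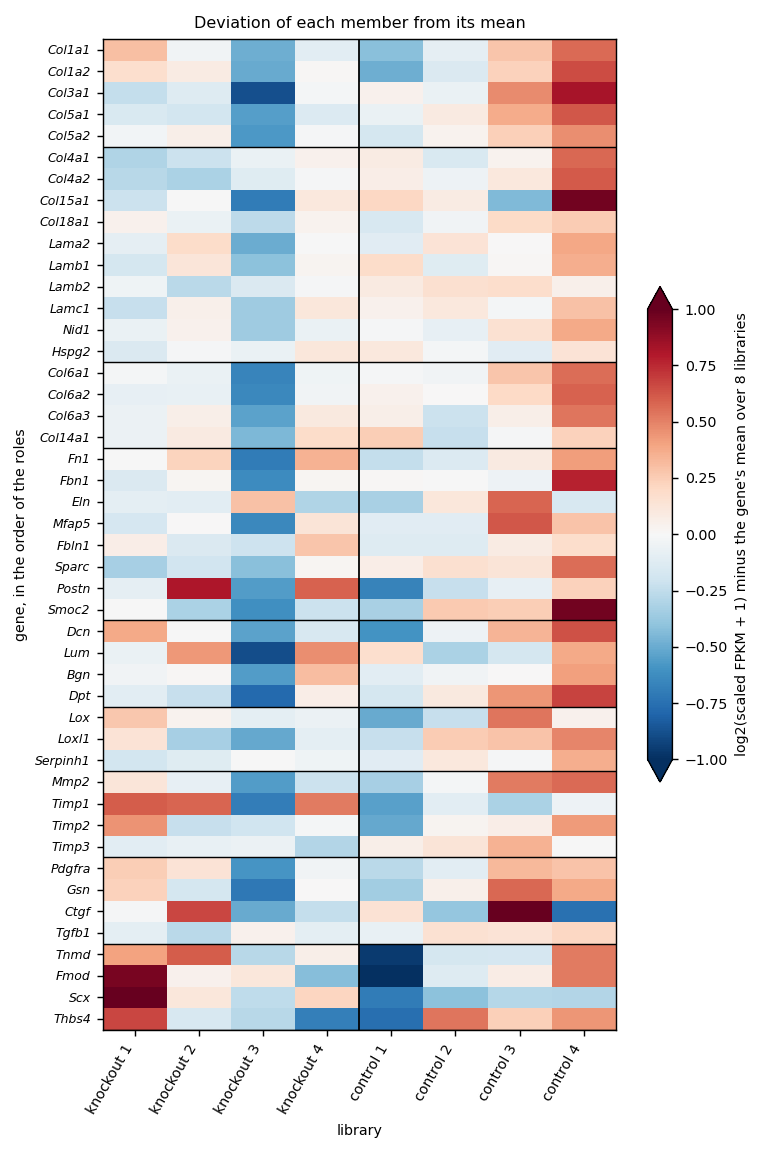
Log2 deviation from the gene's mean over all 8 libraries (colour, capped at 1 in either direction) for each tested matrix gene (rows, by role) in knockout libraries (left columns) and control libraries (right columns). Knockout 3 is the lowest library for 29 of the 42 genes outside tendon and control 4 the highest for 28, while the tendon rows follow knockout 1 and control 1.

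The lean below 0 was also unequal between libraries with and without Xist. Among libraries with Xist (knockout 2 and 4 against control 1), 14 of 42 genes outside tendon were below 0 and the median difference was 0.06. In libraries without Xist (knockout 1 and 3 against control 2, 3 and 4), 41 of 42 were below 0 and the median was -0.42. Fitted in those 5 libraries without Xist alone, the difference was -0.97 for Col3a1, -0.71 for Col5a1, -0.66 for Sparc, -0.63 for Col6a2, -0.22 for Lamb2, -0.24 for Timp3 and 1.01 for Scx. The fibrillar medians were 0.20 with Xist and -0.55 without, and the basement membrane medians -0.08 with Xist and -0.37 without. The tendon median was 0.90 with Xist, with 4 of 4 tested genes above 0, and 0.19 without, with 3 of 4 above 0. A limma interaction of genotype and Xist, added after the data were seen, called none of the matrix genes, and 2 of 11096 genes in all (0.018%); 5 of the 42 matrix genes had an unadjusted p under 0.05 (11.9%), beside 2.66% of all genes. One side of this comparison rests on 1 control library, and the part of Xist presence in the result was not tested beyond it.

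Further genes of the same pathways, on lists that do not repeat the 47, were 135 tested of 173 listed in the tables, and none passed the threshold. Of these 90 were below 0, with a median of -0.09. Other fibro-adipogenic markers had 17 of 19 below 0 and a median of -0.22, which was -0.12 without knockout 3 or without control 4. Matrix receptors had 16 of 19 below 0 (-0.10), and other matrix glycoproteins and proteoglycans 17 of 21 (-0.13). TGF-beta pathway genes were even, with 12 above and 11 below 0 (0.02). Collagen modification genes had 14 of 21 below 0 (-0.07), other proteases and inhibitors 7 of 12 (-0.10), other fibrillar and fibril-associated collagens 2 of 4 (-0.14) and other basement membrane genes 2 of 4 (-0.09). Other tendon and myotendinous junction genes had 8 of 12 above 0 (0.13).

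The gene of smallest p in each list is given as a value. Mfap2, a microfibril protein, averaged 1.77 ± 0.339 scaled FPKM in knockout and 2.80 ± 0.368 in control libraries (SD, n = 4 each; limma adjusted p = 0.130). Itga9, an integrin alpha chain, averaged 1.79 ± 0.621 in knockout and 3.24 ± 0.323 in control libraries (limma adjusted p = 0.133). Adamts5, a protease of proteoglycans, averaged 1.24 ± 0.304 in knockout and 2.22 ± 0.529 in control libraries (limma adjusted p = 0.173). Those 3 genes were lower in knockout libraries by means that differ by more than either SD. Col24a1, a minor fibrillar collagen, averaged 0.792 ± 0.336 in knockout and 1.98 ± 0.832 in control libraries (limma adjusted p = 0.205), and Tgfbr1, the type I receptor for TGF-beta, 7.69 ± 1.14 in knockout and 5.75 ± 0.801 in control libraries (limma adjusted p = 0.240). Lama4, a vascular laminin chain (-0.22), Tmem38b, a cation channel needed for collagen synthesis (-0.40), Gpx3, a secreted glutathione peroxidase (-0.43), and Ptgis, prostacyclin synthase (0.52), were the others, with limma adjusted p from 0.260 to 0.468.

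Markers of other cell types in the same tissue were read beside these groups. Endothelial markers were below 0 for 12 of 13 genes (median -0.18), and their summed level lay at 327 to 456 scaled FPKM in knockout and 395 to 450.1 in control libraries. Smooth muscle and pericyte markers were below 0 for 11 of 11 (median -0.27). Without Des, which muscle fibres also express, the other 10 summed to 271 to 333 in knockout and 292 to 413 in control libraries. Of 9 adipocyte markers only Retn, Cfd and Fabp4 could be tested, and the other 6, Adipoq and Plin1 among them, were below the filter. Those 3 were below 0 (median -0.57). Fabp4, which capillaries also express, made up most of their sum, and Retn and Cfd together lay at 3.70 to 18.1 in knockout and 7.89 to 19.8 in control libraries. Schwann cell markers were below 0 for 7 of 7 (median -0.09). Macrophage markers leaned the other way, with 7 of 8 above 0 (median 0.11) and sums of 39.0 to 72.4 in knockout and 44.9 to 77.9 in control libraries. In knockout 3, where the matrix genes outside tendon averaged a deviation of -0.44, endothelial markers averaged 0.19 and Schwann cell markers 0.12, while smooth muscle markers averaged -0.18, macrophage markers -0.38 and adipocyte markers -0.67. Of 10 muscle fibre markers, 6 could be tested and 5 of them were below 0 (median -0.38), with summed levels of those 6 of 42308 to 69562 in knockout and 65500 to 97205 in control libraries; the other 4 are listed at 0 in some libraries with a status that was not OK. Satellite cell markers had 1 of 2 below 0 and red blood cell markers 1 of 4. None of the markers tested passed the threshold, none was at 0 in all 8 libraries, and their part in the matrix result was not tested.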

How the data were processed

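RNA of tibialis anterior was measured in 8 libraries, 1 per animal, grouped by genotype as given in the labels (4 knockout, 4 control). STAR, Cufflinks and mm10 are named without versions, per the submitters' processing notes; the gene annotation was not given in those sources. The values are FPKM as deposited by the authors, 1 table per library per the file headers. They are not read counts, the read depth is unknown, and the deposited interval columns were not used. A quantification status that was not OK somewhere kept 23 genes out of the tests.

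Scale factors (median of ratios) came from 10171 genes that reached 1 FPKM in every library, and values were analysed as log2 (scaled FPKM + 1). Genes at 1 scaled FPKM or more in at least 4 libraries, 11096 in all, were fitted with limma 3.58.1 in R 4.3.3 (lmFit, eBayes with trend), with Benjamini-Hochberg adjustment over all of them, and only Carm1 was tested by exact permutation. The fit was checked on simulated data with independent normal errors and 200 changed genes. At the threshold it recovered 85.5% of log2 changes of 1 and 46.3% of changes of 0.5, with 5.25% of calls false. The changed genes were drawn only from genes of higher mean level, so recovery for low genes such as Col14a1 was not tested. Most differences of matrix genes were smaller than 0.5, so a gene that did not pass may still differ. Python 3.11.15 with pandas 2.3.3, scipy 1.17.1 and matplotlib 3.10.9 did the rest. Annotation of 3′ untranslated regions and of overlapping genes came from GENCODE M21 on GRCm38, the assembly of mm10.

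The members and lists were chosen with earlier results of these data known. Given library by library were, in each role, the 2 genes with the highest mean and the 2 with the smallest p, every gene without overlap between the groups, all tendon genes, Ctgf and Tgfb1, and in each pathway list the gene with the smallest p was named. Values given by library for Postn, the ratios between chains, the omission of knockout 3 and control 4 together and the interaction with Xist were chosen after the data were seen. Other alternatives were quantile normalization, no scaling, no filter, a filter on a mean of at least 5 FPKM, a pseudocount of 0.1, robust eBayes, array weights, the replicate number as a block, Xist as a covariate, the 5 libraries without Xist, the libraries other than knockout 2 and knockout 4, in which no gene had a low-data status, and leaving out each library. Animals are separate per the labels, and same-numbered animals do not form pairs.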

Additional observations from a re-analysis of the deposited data

Results flagged for a closer look

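In 94 groups of 4 libraries, 1 group per matrix gene and genotype, 8 held a library set apart from the other 3 by Dixon's 95% criterion for 4 values. Chance flags about 1 in 20 groups. In knockout 3, Col5a1 was at 2.36 scaled FPKM, against 3.32 to 3.48 in the other knockout libraries. Col5a2 in the same library was at 3.15, against 5.08 to 5.45. Col6a1 was at 10.8 there, against 16.8 to 17.4, and Col6a2 at 8.21, against 12.6 to 13.1. Timp1 in knockout 3 was at 0.856, against 3.28 to 3.55. Col5a1, Col5a2, Col6a1 and Col6a2 were thus low in that animal together. Col5a3, a further type V chain on the pathway lists, was at 4.52 in knockout 3, against 2.92 to 9.08 in the other knockout libraries. In control 4, Fbn1 was at 5.60, against 2.73 to 2.90 in the other control libraries, and Sparc at 257, against 183 to 194. Scx in knockout 1 was at 26.7, against 6.57 to 9.51 in the other knockout libraries.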

How the results depend on the processing

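No matrix gene passed the threshold under any of 20 alternatives, and 26 of the 46 kept 1 sign under all of them. Over all genes, 22 were called higher and 18 lower; with no filter 4 and 4, with a mean of at least 5 FPKM 7 and 8, with array weights 56 and 47, with Xist as a covariate 121 and 102, in libraries without Xist 0 and 1, without knockout 2 and knockout 4 5 and 7, without both knockout 3 and control 4 0 and 1, and without each library in turn 1 to 13 higher and 1 to 14 lower. With no scaling 36 were called higher, and the median of all genes was 0.07. The replicate number as a block gave 0 higher and 0 lower genes and no matrix gene; correlations of same-numbered libraries (-0.43, -0.19, 0.35 and 0.19) did not pair them.

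List medians departed by more than the spread between libraries as follows. Without both knockout 3 and control 4 they were -0.041 for basement membrane genes and 0.012 for matrix receptors. In libraries without Xist they were -0.61 for microfibrillar collagens, -0.55 for glycoproteins, -0.21 for receptors and -0.093 for other tendon genes. Without knockout 2 and knockout 4 they were -0.48 for glycoproteins and -0.21 for receptors. With a mean of at least 5 FPKM they were 0.015 for other basement membrane genes, 0.038 for other proteases and -0.18 for other tendon genes. That filter dropped low genes from the lists and left the difference of each kept gene unchanged. Those medians are the main differences of Lama5, Ctsb and Chodl. With no scaling the medians were -0.021 for other basement membrane genes and 0.016 for collagen modification. Without each library in turn, other proteases lay between -0.15 and -0.0042 and TGF-beta genes between -0.075 and 0.037.

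Differences of single genes turned sign as follows. Without both knockout 3 and control 4 they were 0.13 for Col1a1, 0.22 for Col1a2, 0.013 for Col15a1, 0.0044 for Col18a1, 0.020 for Lama2, 0.065 for Col6a3, 0.28 for Fn1, 0.13 for Fbln1, 0.17 for Dcn, 0.39 for Lum, 0.14 for Bgn, 0.20 for Timp2 and 0.13 for Pdgfra. With no scaling they were 0.030 for Hspg2, 0.014 for Fn1, 0.050 for Fbln1, 0.057 for Lum, 0.082 for Timp2 and 0.042 for Ctgf. Array weights gave 0.040 for Fn1, 0.052 for Fbln1, 0.16 for Lum and 0.16 for Ctgf. Without knockout 2 and knockout 4 they were 0.046 for Eln, -0.14 for Postn, 0.12 for Timp2 and 0.080 for Thbs4, and in libraries without Xist -0.30 for Postn and -0.033 for Lox. Timp2 was at 0.022 with quantile normalization and 0.11 with Xist as a covariate. Without each library in turn the range was -0.31 to 0.071 for Col1a2, -0.21 to 0.014 for Col14a1, -0.19 to 0.15 for Fn1, -0.23 to 0.071 for Eln, -0.094 to 0.068 for Fbln1, -0.39 to 0.023 for Dcn, -0.19 to 0.26 for Lum, -0.26 to 0.030 for Bgn, -0.082 to 0.27 for Lox, -0.17 to 0.14 for Timp2, -0.23 to 0.056 for Pdgfra and -0.30 to 0.31 for Ctgf. Apart from the lists shortened by the filter on a mean, the cause of these shifts was not tested.

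FPKM without counts give no precision for a single gene, so low genes such as Comp and Col14a1 cannot be weighed for depth. Pooled tissue does not locate a transcript in a cell type.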
